A study of Rattus norvegicus with 8 samples.

Results

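Interferon-stimulated genes, the genes that cells switch on when an interferon binds its receptor, were followed in whole-blood RNA sequencing of rats with induced hypertension, before and after Chios mastic gum (CMG), a resin given orally. The genes were taken by symbol from a list of 35 names. In the deposited counts 32 of the 35 were found among 17446 genes, and Herc6, Xaf1 and Samd9l were not among the gene names. The 8 libraries came from male wild-type Wistar rats of 2 models, with 2 libraries before and 2 after CMG in each model. In the AngII model, angiotensin II was infused at 0.4 mg/kg/day from implanted minipumps. In the DOCA–HS model, DOCA was given at 100 mg/kg once weekly with 0.9% NaCl and 1% KCl in the drinking water. Per the study's methods the rats were 12 to 14 weeks old, CMG was given daily at 220 mg/kg for 4 weeks, and blood was taken at weeks 1 and 5 of AngII infusion and at weeks 3 and 7 of DOCA–HS. Libraries from untreated or vehicle-treated rats were not analysed here, so CMG and the 4 further weeks of the model cannot be told apart in any difference between after and before. Nothing in the labels says whether libraries of a group came from separate rats, so the p-values measure the spread between these libraries, which may be technical.

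Type I interferons bind a receptor whose kinases, JAK1 and TYK2, activate transcription factors, STAT2 among them. With IRF9 these form a complex that enters the nucleus and binds the interferon-stimulated response element (ISRE) before its target genes, while the targets of interferon gamma carry the gamma-activated site (GAS). The targets include sensors of viral RNA, the transcription factors of the pathway itself and proteins that block the growth of viruses, and leukocytes of the blood are among the cells that express them.

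The motifs of these complexes were searched in the RefSeq promoters (build GRCr8) of the members, in the 250 bases before the annotated start. A promoter was matched for 23 of the 32 members. No entry was matched for Ddx58, Dhx58, Isg15, Usp18, Oas2, Ifit1, Ifit2, Mx2 and Rtp4. The ISRE core was searched on both strands as GAAA, 2 bases of any kind and GAAA again, and it was held by 14 of the 23 promoters (60.9%), against 1140 of the 33469 promoters of the table (3.41%). The GAS was searched as TTC, 3 bases of any kind and GAA, which reads the same on both strands, and it was held by 7 of the 23 (30.4%) against 7.67% of all promoters. Both shares are counts of letters and not measurements of binding. The windows below belong to the members that the expression results turn on, each written 5′ to 3′ on the strand of the gene, with the ISRE core in capitals.
Bst2, chr16:18255051-18255130, minus strand: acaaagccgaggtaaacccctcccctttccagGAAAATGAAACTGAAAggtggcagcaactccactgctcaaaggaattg
Gbp2, chr2:234005661-234005726, plus strand: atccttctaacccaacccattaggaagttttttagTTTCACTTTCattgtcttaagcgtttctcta
Irgm, chr10:33742579-33742647, minus strand: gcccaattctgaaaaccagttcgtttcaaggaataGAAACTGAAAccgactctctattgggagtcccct
Rsad2, chr6:48788223-48788302, minus strand: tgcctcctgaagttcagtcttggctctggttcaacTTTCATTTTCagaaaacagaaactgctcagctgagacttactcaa
Irf7, chr1:205800048-205800127, minus strand: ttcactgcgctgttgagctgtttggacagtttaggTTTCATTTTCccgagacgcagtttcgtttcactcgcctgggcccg
Lgals3bp, chr10:104127854-104127933, minus strand: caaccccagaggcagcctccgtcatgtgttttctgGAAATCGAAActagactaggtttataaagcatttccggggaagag
The Bst2 window holds 2 overlapping matches, the nearer of which begins 125 bases before the start, and a GAS overlaps the farther one. In Gbp2, Irgm and Lgals3bp the core begins 31, 34 and 50 bases before the start, and in Irf7 and Rsad2 it begins 69 and 147 bases before it. The match lies on the opposite strand in Gbp2, Irf7 and Rsad2. Cmpk2, the neighbour of Rsad2 on chromosome 6, had no ISRE core in its own 250 bases.

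**Figure D1:**
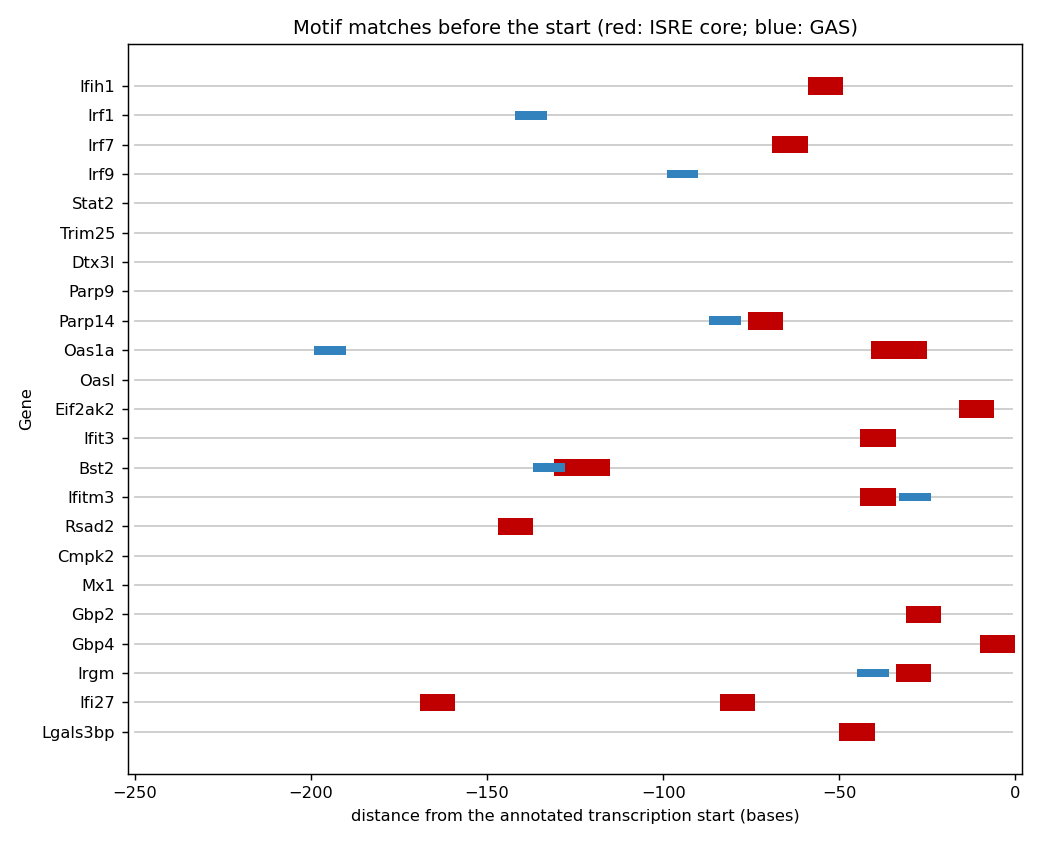
Each line is the 250 bases before the annotated start of one of the 23 members with a promoter entry, with the distance from the start in bases on the horizontal axis. Red blocks mark the ISRE core and blue blocks the GAS, and red blocks appear in 14 of the 23 lines.

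Levels are given as normalized CPM, the counts of a gene scaled to a common library size, with TMM factors from all 8 libraries. The library totals ranged from 4149104 to 13205565 counts, of which hemoglobin genes took between 61.9% and 84.3%, so that 651764 to 4490083 counts remained for other genes. The lowest of these totals belonged to DOCA–HS after replicate 2, which stood apart from the other libraries. Only 13 members reached 10 counts there, against 24 to 31 in the other libraries, and Trim25, Oas1a, Oas2, Mx2, Gbp4 and Rtp4 had 0 counts, which at its depth allows up to 1.99 CPM each. This limit covers counting error only and was 0.169 to 0.504 CPM in the other libraries. The main results that rest on it are given with and without this library. Whole blood gives 1 RNA pool, in which fewer cells of a type and less RNA per cell cannot be told apart. Genes that define leukocytes, red cells and platelets were found in all libraries, and Cox6a2 and Ly6d of plasmacytoid dendritic cells and Gp1bb of platelets were at 0 in every library. The markers Cd79a, Siglech, Itga2b and Tubb1 were not among the gene names.

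The counts of the members were unevenly spread over the list. Rsad2, which encodes viperin, an enzyme that makes an antiviral nucleotide, took between 40.9% and 78.8% of all member counts of a library. Irf7, the transcription factor that drives interferon alpha genes, took 11.7% to 27.5%, and Ifit1, whose product binds foreign RNA caps, took 2.11% to 15.9%. These shares are of counts and not per transcript length. At the other end, Oas2, an oligoadenylate synthetase, had 1 and 0 counts before and 3 and 1 after CMG in AngII rats, and 1 and 3 before and 14 and 0 after CMG in DOCA–HS rats. Ifitm3, which blocks the fusion of viruses with membranes, had between 0 and 4 counts in each library. Both were below the filter on low counts in every comparison, and Gbp4, a guanylate-binding GTPase with 0 to 22 counts, was below it in 2 of them.

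The 2 libraries of a group differed from each other in many members. Of the 30 members with a mean of at least 10 counts, 17 differed more than 2-fold between the 2 DOCA–HS after libraries (56.7%), against 33.8% of all genes at this depth. The same was true of 5 members in the AngII before libraries, 7 in the AngII after libraries and 2 in the DOCA–HS before libraries, where all genes gave 9.82%, 12.2% and 5.21%. DOCA–HS before was thus the group with the fewest members that differed between its libraries. In the AngII after group, Irf7 was at 1035 and 224 CPM in replicates 1 and 2, Ifit1 at 598 and 94.6, Lgals3bp, a secreted glycoprotein, at 142 and 19.0, and Isg15, a ubiquitin-like protein that is linked to other proteins, at 14.6 and 3.73. All 4 were lower in replicate 2. The summed platelet markers moved with them, at 550 and 59.9 CPM in these libraries, and their part in the difference was not tested.

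**Figure D2:**
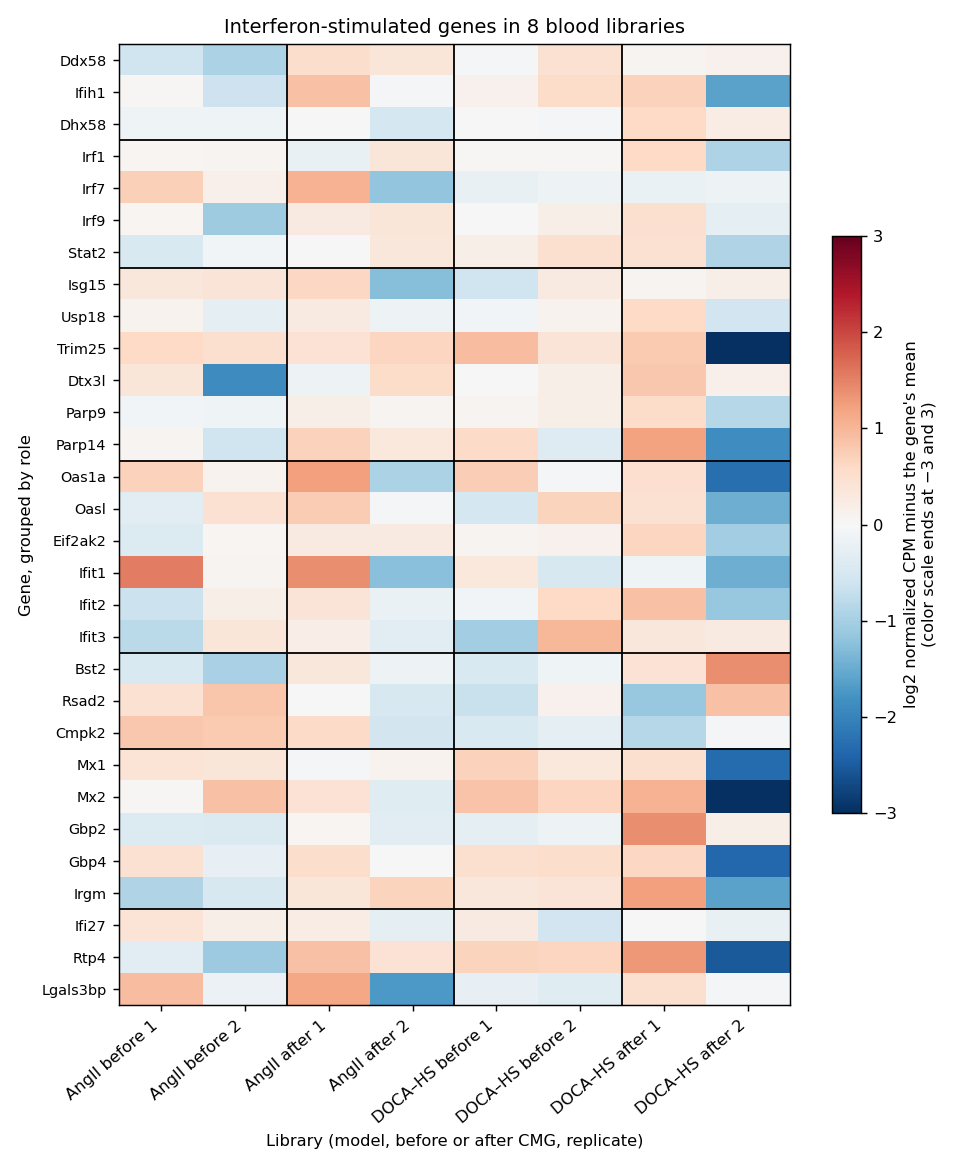
Log2 normalized CPM of each of the 30 members with enough counts (rows, grouped by role) minus its mean over the 8 libraries (columns), with red above and blue below the mean. DOCA–HS after replicate 2 is mostly blue, with 8 of 30 members above their mean, while DOCA–HS after replicate 1 has 26 above.

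In the AngII model, no interferon-stimulated gene was called after CMG. The study's criterion was a log2 fold change above 1.5 or below −1.5 together with a raw (unadjusted) p-value of 0.05 or less. By edgeR's quasi-likelihood test 0 of the 29 members tested met it, against 1.24% of all genes tested, and DESeq2 also gave 0. At a raw p-value of 0.05 or less alone, 3 members passed (Irgm, Ddx58 and Bst2, all higher after CMG), against 6.65% of all genes. DESeq2 gave 1, Rsad2, against 2.29% of all genes. The lowest Benjamini-Hochberg adjusted p-value of a member was 0.628 (edgeR, over all genes). The median log2 fold change of the members was 0.13 and that of all genes −0.01, with 18 of the 29 members above 0. With each library left out in turn this median lay between −0.08 (without after replicate 1) and 0.44 (without after replicate 2).

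Among the RNA sensors, Ddx58, which encodes RIG-I, was at 1.12 and 0.841 CPM before and 2.70 and 2.39 CPM after CMG. Both after libraries lay above both before libraries, with a log2 fold change of 1.34 (SE 0.46, unadjusted p = 0.0193, adjusted p = 0.628, edgeR). The counts behind it were 14 and 5 before and 17 and 32 after. Ifih1, which encodes the sensor MDA5, and Dhx58, which encodes LGP2, did not separate the groups, with log2 fold changes of 0.71 (SE 0.48) and −0.13 (SE 0.44).

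Among the GTPases, Irgm, an immunity-related GTPase that acts on vacuoles of intracellular microbes, was at 1.20 and 1.68 CPM before and 3.18 and 3.96 CPM after CMG. The groups did not overlap, and the log2 fold change was 1.39 (SE 0.39, unadjusted p = 0.00780, adjusted p = 0.628, edgeR). It ranged from 1.09 to 1.57 with each library left out in turn. Mx1, which blocks virus replication in the cell, was at 23.2 and 22.5 CPM before and 16.7 and 18.7 CPM after CMG, and Mx2 had a log2 fold change of −0.44 (SE 0.48). Gbp2, a guanylate-binding protein, had a log2 fold change of 0.33 (SE 0.30).

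Among the membrane and nucleotide effectors, Bst2, which encodes tetherin and holds budding viruses at the cell surface, was at 6.34 and 4.37 CPM before and 11.1 and 7.84 CPM after CMG. Both after libraries were above both before libraries (log2 fold change 0.82, SE 0.34, unadjusted p = 0.0433, adjusted p = 0.733, edgeR). Its fold change was 0.48 without after replicate 1. Rsad2 was at 2262 and 2966 CPM before and 1634 and 1197 CPM after CMG, with both after libraries below both before libraries, and its log2 fold change of −0.85 (SE 0.49) did not pass (unadjusted p = 0.123, edgeR). Cmpk2, a mitochondrial nucleotide kinase, was at 142 and 139 CPM before and 120 and 55.5 CPM after CMG, with a log2 fold change of −0.64 (SE 0.44, unadjusted p = 0.182, edgeR). The erythroid marker sum ran in the same direction, at 21864 and 27464 CPM before and 21145 and 13563 CPM after CMG, and its part in these values was not tested.

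The after and before libraries did not overlap for 13 of the 29 members, 10 higher and 3 lower after CMG, against 40.1% of all genes. The 10 were Irgm, Ddx58, Bst2, Rtp4, Parp14, Irf9, Eif2ak2, Stat2, Gbp2 and Parp9, and the 3 were Rsad2, Cmpk2 and Mx1. Rtp4, a receptor transporter protein, had the highest fold change (log2 1.47, SE 0.64, unadjusted p = 0.0514, edgeR) on 9 and 2 counts before and 12 and 18 after CMG, and it was 2.20 without before replicate 1. Irf9 and Stat2, which act in the complex that binds the ISRE, had log2 fold changes of 0.72 (SE 0.39) and 0.48 (SE 0.31), neither of which passed. Markers of cytotoxic lymphocytes were also higher after CMG in this model, with 4 of the 6 tested at a raw p-value of 0.05 or less and a sum of 32.6 and 33.8 CPM before and 72.7 and 65.3 CPM after. In DOCA–HS rats these markers summed to 21.5 and 38.7 CPM before and 43.3 and 61.1 CPM after CMG. There 5 of the 6 tested had a log2 fold change above 0, 1 of them at a raw p-value of 0.05 or less (edgeR). The part of these markers in the members' values was not tested.

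Leaving out 1 library changed the fold changes of some members in the AngII model. Without after replicate 1, Ifit1, Irf7, Isg15 and Lgals3bp had log2 fold changes of −2.30, −1.68, −1.73 and −2.25. The median of the members was then −0.08, beside 0.01 for all genes. In that fit, and in each fit below with 1 library left in a group, the lone library is assumed to vary like the other group. With all 4 libraries the fold changes of the 4 genes were −0.35, −0.10, −0.40 and −0.09. Without before replicate 1, Ddx58 was at 1.57 and Dtx3l at 2.66, and without before replicate 2 Irgm was at 1.57. Scaling to total counts moved the median of all genes from −0.01 to 0.36. Ddx58, Irgm and Rtp4 then met the criterion with log2 fold changes of 1.69, 1.77 and 1.81, against 222 of all 7201 genes tested.

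In the DOCA–HS model, no member was called after CMG either. By edgeR's quasi-likelihood test 0 of the 30 members tested met the criterion, against 2.05% of all genes, and DESeq2 gave 0. A raw p-value of 0.05 or less was reached by 2 members, Bst2 and Gbp2, against 3.17% of all genes. With DESeq2 it was reached by 1, Bst2, against 3.59% of all genes. The lowest adjusted p-value of a member was 0.997 (edgeR). The groups did not overlap for 4 members, Bst2, Gbp2, Dhx58 and Lgals3bp, all higher after CMG, against 36% of all genes. Dhx58 had 4 counts in after replicate 2. The median log2 fold change of the members was 0.08, beside −0.04 for all genes, and 21 of 30 were above 0.

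Bst2 was at 6.30 and 8.03 CPM before and 11.8 and 23.2 CPM after CMG in replicates 1 and 2. Both after libraries were above both before libraries, with a log2 fold change of 1.30 (SE 0.52, unadjusted p = 0.0341, adjusted p = 0.997, edgeR). Without after replicate 2 it was 0.75, and without after replicate 1 it was 1.81, on 152 and 35 counts in the 2 after libraries. Scaled to total counts, which moved the median of all genes from −0.04 to −0.76, the fold change of Bst2 was 0.28 and that of Gbp2 was 0.73, and neither had a raw p-value of 0.05 or less.

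Gbp2 was at 11.4 and 12.5 CPM before and 36.8 and 15.9 CPM after CMG. The log2 fold change was 1.22 (SE 0.50, unadjusted p = 0.0402, adjusted p = 0.997, edgeR), and after replicate 1 was the higher of the after libraries. Without after replicate 2 it was 1.64, while without after replicate 1 it was 0.52. Dtx3l, a ubiquitin ligase that works with PARP9, had the next smallest p-value, with 1.74 and 2.04 CPM before and 3.26 and 1.99 CPM after CMG (log2 fold change 0.67, SE 0.50, unadjusted p = 0.219, edgeR).

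The 2 after libraries of this model were far apart for Rsad2, the member with the most counts. It was at 1049 and 1798 CPM before and 748 and 3069 CPM after CMG, so that after replicate 1 was the lowest and after replicate 2 the highest of all 8 libraries. Its log2 fold change of 0.51 (SE 0.90) became −0.92 without after replicate 2. The erythroid marker sum was at 11760 and 34462 CPM in the same 2 libraries, and its highest library was also after replicate 2. Most of it was Alas2 (9136 and 28201 CPM), while Hemgn (725 and 665 CPM) and Klf1 (236 and 168 CPM) were lower in after replicate 2. The platelet marker sum was also higher, at 609 and 903 CPM against 212 and 295 CPM before CMG. Most of it was Pf4 (434 and 670 CPM after CMG), and Gp9 and Treml1 were also higher in both after libraries. Itgb3 (7.30 CPM) and Ppbp (3.32 CPM) were below both before libraries in after replicate 2. Neither sum was tested for a part in the values of Rsad2. Cmpk2, at 44.9 and 77.6 CPM after CMG, differed less, so that the count of Rsad2 divided by that of Cmpk2 was 39.5 in after replicate 2 and 13.6 to 26.6 in the other 7 libraries.

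Most other members were lower in after replicate 2 than in after replicate 1. Irgm was at 5.97 and 0.664 CPM, Parp14, an ADP-ribosyltransferase, at 18.1 and 1.99 CPM, Mx1 at 24.1 and 3.32 CPM, and Ifih1 at 4.03 and 0.664 CPM, the last on 52 and 1 counts. Eif2ak2, which encodes the RNA-dependent kinase PKR, was at 8.996 and 2.65 CPM and Oasl, an oligoadenylate synthetase-like protein, at 8.07 and 1.99 CPM. Without after replicate 2 the median of the members was 0.40, and without after replicate 1 it was −0.90, where that of all genes was −0.37. The median of all genes without after replicate 2 was −0.02. Without after replicate 1 the log2 fold changes included 1.81 for Bst2, −2.81 for Mx1 and −2.07 for Parp14.

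**Figure D3:**
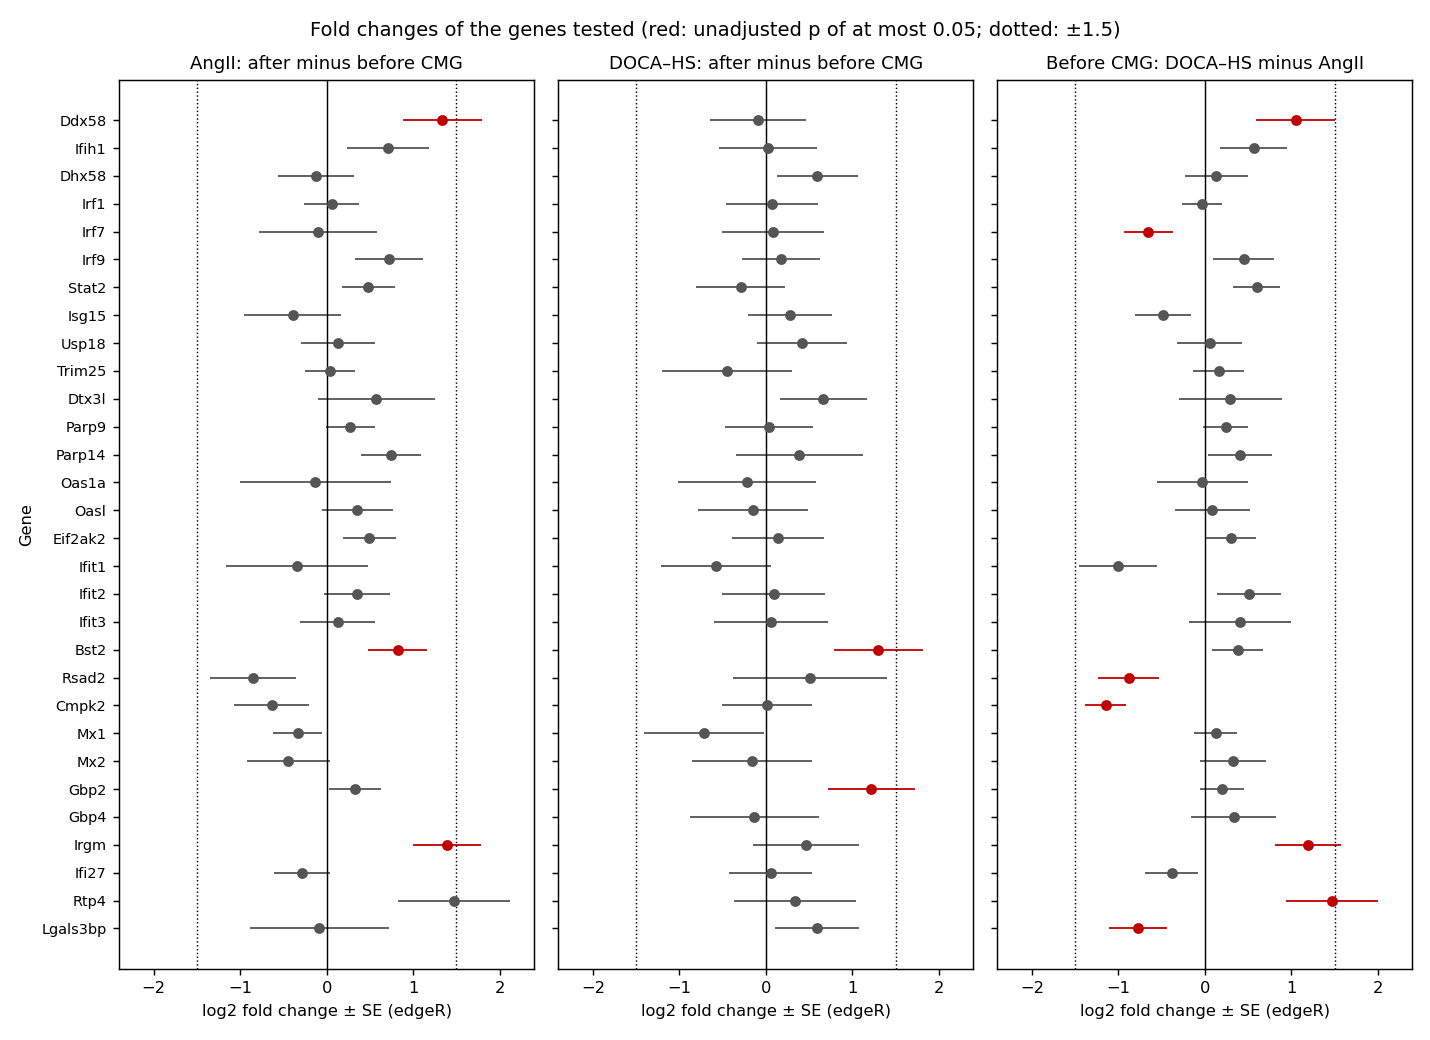
Log2 fold change with its standard error for each member tested, in the AngII model, the DOCA–HS model and between the models before CMG, with red for a raw p-value of 0.05 or less and dotted lines at 1.5 in either direction. No red point lies beyond a dotted line, and Bst2 is red in both models.

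Before CMG, no member was called between the models. By the criterion 0 of the 30 tested were called in DOCA–HS against AngII blood (edgeR, and 0 with DESeq2), against 0.79% of all genes. A raw p-value of 0.05 or less was reached by 7 members, against 14.5% of all genes, 4 lower in the DOCA–HS model (Cmpk2, Rsad2, Lgals3bp and Irf7) and 3 higher (Irgm, Rtp4 and Ddx58). DESeq2 gave 5, all lower (Cmpk2, Rsad2, Lgals3bp, Irf7 and Ifit1), against 9.5% of all genes. Cmpk2 was 1 of 241 among all 7470 genes with an adjusted p-value under 0.05 in DESeq2. The lowest of a member in edgeR was 0.185. The groups did not overlap for 16 members, 10 higher and 6 lower, against 47% of all genes. The median log2 fold change was 0.22, beside 0.06 for all genes.

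Cmpk2 was at 142 and 139 CPM in the AngII and 59.3 and 67.6 CPM in the DOCA–HS libraries. The replicates lay close together in each model, and the log2 fold change was −1.15 (SE 0.24, unadjusted p = 0.000858, adjusted p = 0.185, edgeR). It was −1.31 to −1.04 with each library left out in turn. Its neighbour Rsad2 was at 2262 and 2966 CPM in the AngII and 1049 and 1798 CPM in the DOCA–HS libraries (log2 fold change −0.88, SE 0.36, unadjusted p = 0.0349, adjusted p = 0.299, edgeR). The fold change of Rsad2 was −0.53 without DOCA–HS before replicate 1 and −1.39 without DOCA–HS before replicate 2.

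Irf7 was at 831 and 558 CPM in the AngII and 432 and 452 CPM in the DOCA–HS libraries (log2 fold change −0.65, SE 0.29, unadjusted p = 0.0483, edgeR), and it was −0.37 without AngII before replicate 1 and 0.11 when scaled to total counts. Lgals3bp was at 119 and 55.6 CPM and 53.1 and 49.5 CPM (log2 fold change −0.77, SE 0.34, unadjusted p = 0.0465, edgeR), and it was −0.15 without AngII before replicate 1 and −1.21 without AngII before replicate 2. For both genes the AngII libraries lay further apart than the DOCA–HS libraries. Ifit1, at 664 and 240 CPM and 283 and 164 CPM, overlapped between the models (log2 fold change −1.01, SE 0.45, unadjusted p = 0.0514, edgeR), and was at −0.13 without AngII before replicate 1.

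On the higher side, Irgm was at 1.20 and 1.68 CPM in the AngII and 3.15 and 3.21 CPM in the DOCA–HS libraries (log2 fold change 1.19, SE 0.38, unadjusted p = 0.0117, edgeR). Rtp4 was at 0.722 and 0.336 CPM and 1.63 and 1.61 CPM (log2 fold change 1.47, SE 0.53, unadjusted p = 0.0207, edgeR), and Ddx58 at 1.12 and 0.841 CPM and 1.74 and 2.57 CPM (log2 fold change 1.05, SE 0.46, unadjusted p = 0.0464, edgeR). The DOCA–HS libraries lay above the AngII libraries for each of the 3. This comparison uses the same 2 AngII before libraries as the after against before comparison of that model, in which the same 3 genes had log2 fold changes of 1.39, 1.47 and 1.34, so the comparisons are not independent.

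Red cell markers differed between the models before CMG, with 7 of the 8 tested at a raw p-value of 0.05 or less and all 8 lower in the DOCA–HS model. Their sum was 21864 and 27464 CPM in the AngII and 10893 and 14938 CPM in the DOCA–HS libraries. The part of this in the lower values of Cmpk2, Rsad2, Lgals3bp and Irf7 was not tested. Scaling to total counts moved the median of all genes from 0.06 to 0.84, where Cmpk2 and Rsad2 were at −0.37 and −0.16 and Irgm, Rtp4 and Ddx58 at 1.96, 2.24 and 1.79. The model, its week and the rats cannot be told apart here.

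**Figure D4:**
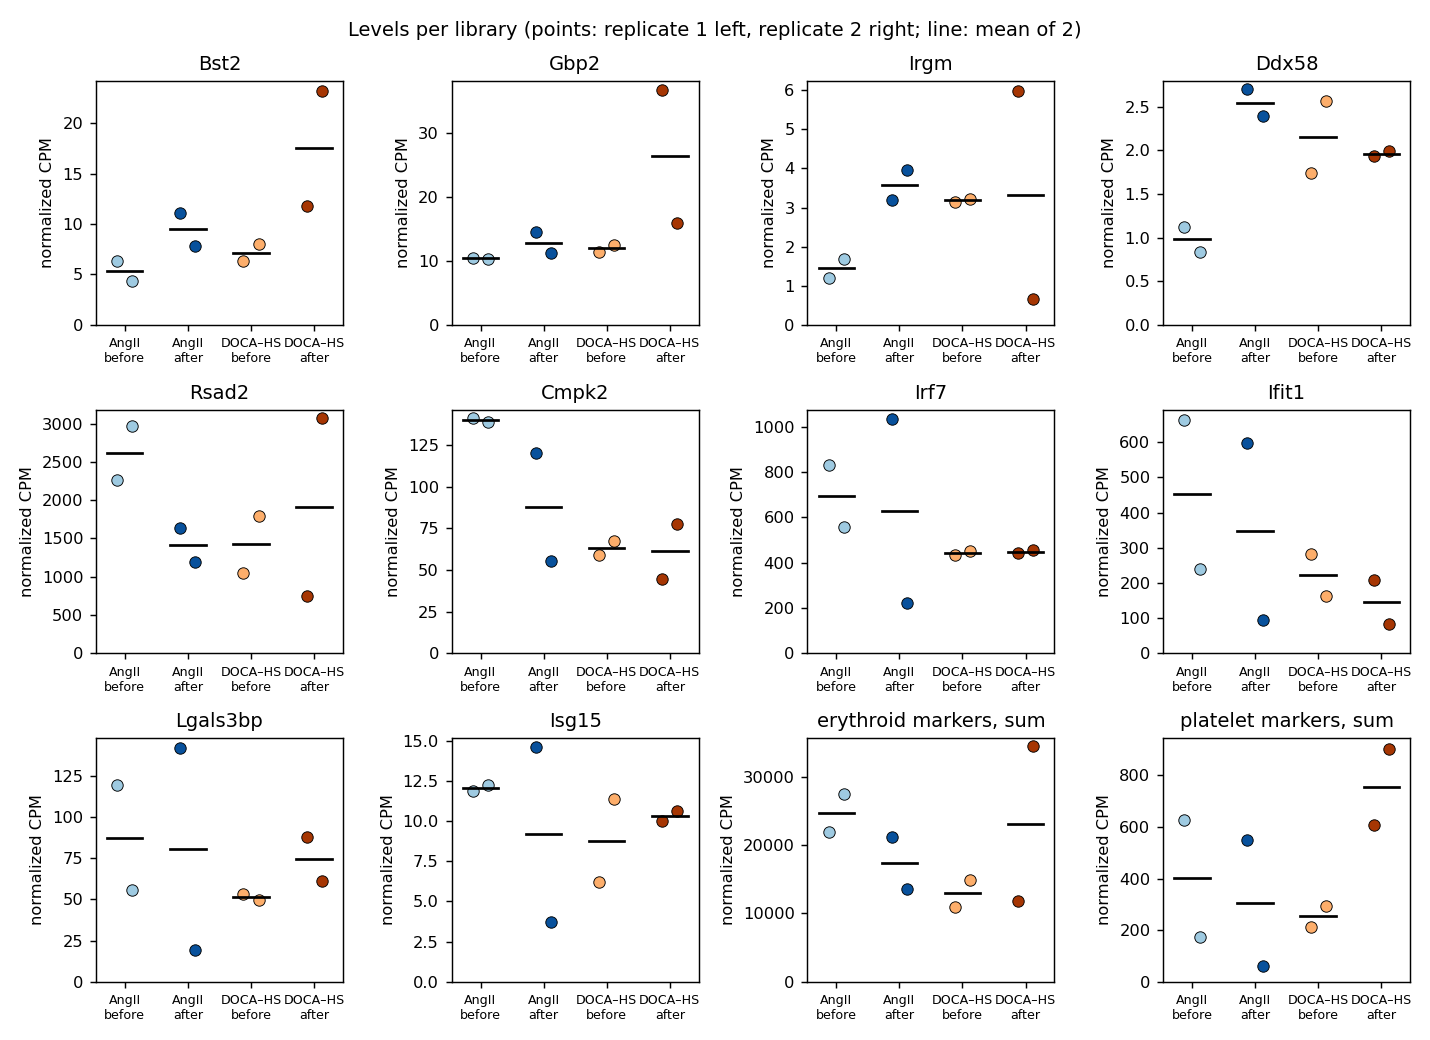
Normalized CPM in each library for 10 members and for the summed markers of red cells and platelets, with replicate 1 on the left and replicate 2 on the right of each group and a line at the mean of the 2 libraries; the vertical axes start at 0. Bst2 is higher in the after libraries of both models, and Rsad2 and the erythroid sum have their highest library in common, DOCA–HS after replicate 2.

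After CMG, the models did not differ in any member at a raw p-value of 0.05 or less (0 of 29 in edgeR and 0 in DESeq2, against 0.801% of all genes). The criterion gave 0 members against 0.665% of all genes, with a lowest adjusted p-value of 0.999. The smallest p-values belonged to Gbp2 (log2 fold change 1.08, SE 0.59, unadjusted p = 0.101), Bst2 (0.90, SE 0.60, unadjusted p = 0.168) and Dhx58 (0.83, SE 0.60, unadjusted p = 0.197, edgeR). Dhx58 was at 2.23 and 1.49 CPM in the AngII and 3.49 and 2.65 CPM in the DOCA–HS libraries. The last value rests on 4 counts, and that of Ddx58 in the same library (1.99 CPM) on 3. The groups did not overlap for 5 members, Gbp2, Bst2, Dhx58 and Ifit3 on the higher and Ddx58 on the lower side in the DOCA–HS model, against 25.5% of all genes. The median was −0.02 beside −0.06 for all genes, and it was 0.38 without DOCA–HS after replicate 2 and −0.91 without after replicate 1 of that model. The medians of all genes in these fits were 0.00014 and −0.30. The log2 fold change of Gbp2 was 1.53 without DOCA–HS after replicate 2.

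Averaged over both models, with the model as a covariate, 3 members had a raw p-value of 0.05 or less, against 3.9% of all genes, and 0 of 30 met the criterion, against 0.325%. Bst2 had a log2 fold change of 1.04 (SE 0.31, unadjusted p = 0.00593, adjusted p = 1.00, edgeR), and each of the 4 after libraries was above each before library of its own model. Gbp2 (0.77, SE 0.31, unadjusted p = 0.0318, edgeR) and Irgm (0.89, SE 0.39, unadjusted p = 0.0438, edgeR) followed. DESeq2 gave the same 3 genes, against 4.72% of all genes. Scaled to total counts, Bst2, Gbp2 and Irgm were at 0.71, 0.70 and 0.81 and did not pass, and the 1 member with a raw p-value of 0.05 or less was Rsad2, lower at −0.69. With total counts outside 2 hemoglobin genes it was Bst2 alone, at 0.96. With each library left out in turn, Bst2 lay between 0.76 and 1.21, while Gbp2 was at 0.38 without DOCA–HS after replicate 1. The median of the members was 0.13, beside 0.03 for all genes. Without DOCA–HS after replicate 2 it was 0.31, beside 0.01 for all genes, and Rsad2 was at −0.90.

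The change after CMG was not shown to differ between the models for any member. In the test of this difference 0 of 30 members met the criterion, against 3.16% of all genes, and 0 had a raw p-value of 0.05 or less in edgeR and 0 in DESeq2, against 3.74% of all genes in edgeR. The smallest p-value was that of Ddx58, at a log2 difference of −1.42 (DOCA–HS minus AngII, SE 0.67, unadjusted p = 0.0585, edgeR), followed by Gbp2 at 0.91 (SE 0.59, unadjusted p = 0.149) and Rsad2 at 1.38 (SE 1.02, unadjusted p = 0.203, edgeR). Without DOCA–HS after replicate 2 the difference was −1.43 for Ddx58, 1.33 for Gbp2 and −0.04 for Rsad2. The median difference was −0.13, beside −0.12 for all genes. Without DOCA–HS after replicate 1 it was −1.08, beside −0.50 for all genes.

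**Figure D5:**
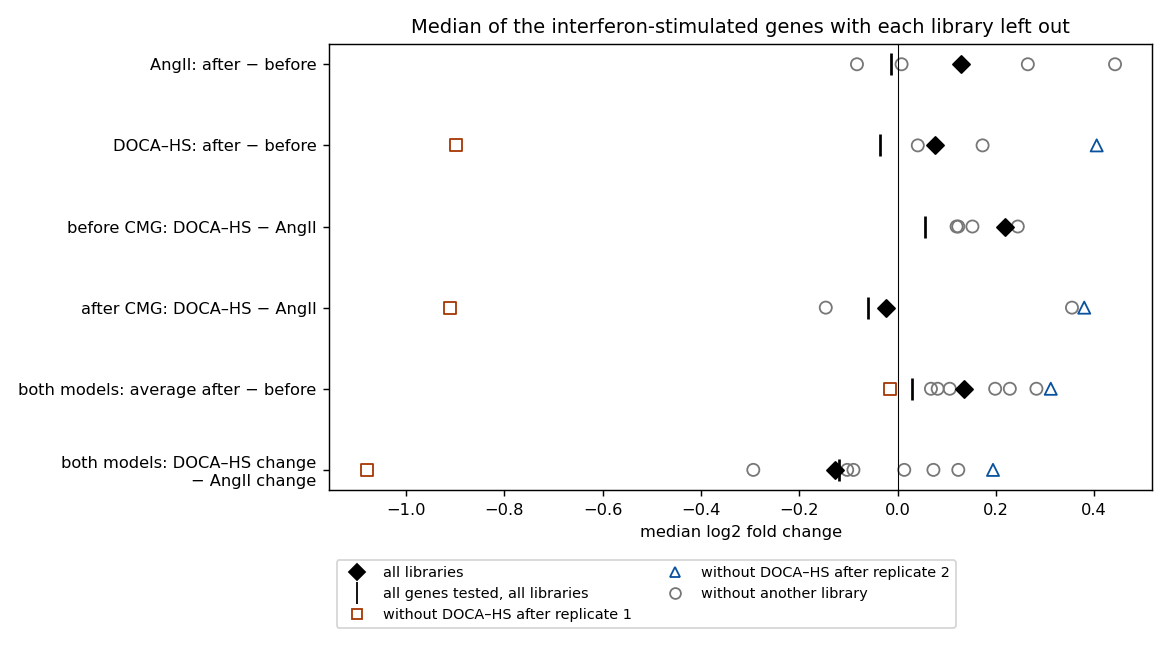
Median log2 fold change of the members in the 6 comparisons, with all libraries (black diamonds), with each library left out in turn (open symbols), and for all genes tested (vertical bars). In the comparisons that use DOCA–HS after CMG the square and triangle, each leaving out one of its libraries, lie furthest from the diamond, from −1.08 to 0.40.

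For the members not yet described, each log2 fold change within a model was smaller than its standard error. Usp18, which removes ISG15 from proteins, Trim25, a ubiquitin ligase of the RIG-I pathway, and Parp9, an ADP-ribosyltransferase, had log2 fold changes of 0.13, 0.03 and 0.27 in AngII rats and 0.42, −0.45 and 0.03 in DOCA–HS rats. With DOCA–HS after replicate 2 left out, the DOCA–HS values of these genes were 0.66, 0.10 and 0.45. Irf1, a transcription factor induced by interferon gamma, was at 0.06 and 0.07, and Ifi27, a mitochondrial interferon-induced protein, at −0.28 and 0.06. Of the oligoadenylate synthetases and IFIT genes, Oas1a was at −0.13 and −0.21, Oasl at 0.35 and −0.14, Ifit2 at 0.35 and 0.09, and Ifit3 at 0.12 and 0.06 (AngII first). Without DOCA–HS after replicate 2, the DOCA–HS values were 0.58 for Irf1, 0.13 for Ifi27, 0.057 for Oas1a, 0.32 for Oasl, 0.63 for Ifit2 and 0.068 for Ifit3. Ifit3 was at 12.5 and 28.6 CPM before and 25.6 and 17.9 after CMG in AngII rats, and at 10.6 and 44.0 and 28.2 and 26.5 in DOCA–HS rats. Its adjacent gene on chromosome 1 is Ifit2. Oas, Ifit, Gbp and Mx genes and Irgm have close relatives in the genome, so the assignment of reads among them is uncertain.

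Members with an ISRE core in the 250 bases and members without one had medians of 0.23 (12 members) and 0.27 (9 members) in AngII blood, and of 0.14 (13) and 0.01 (9) in DOCA–HS blood. The medians before CMG were 0.31 and 0.16 between the models.

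The other genes of the pathway were followed with a list of 100 symbols that are not members, of which 81 were found. Of the interferons themselves, Ifna1, Ifna2, Ifna4, Ifnb1 and Ifnk had 0 counts in all 8 libraries, and Ifng, the interferon of T and NK cells, had 0 to 3 counts. The receptor chain Ifnar1 was at 40.1 and 44.7 CPM before and 35.0 and 27.9 CPM after CMG in AngII rats and at 33.4 and 29.0 and 31.5 and 33.8 in DOCA–HS rats. Its log2 fold changes were −0.40 (SE 0.31) and 0.12 (SE 0.45). Those of Ifngr1 were 0.53 (SE 0.29) and 0.54 (SE 0.46), and those of Ifngr2 0.52 (SE 0.29) and −0.35 (SE 0.51). None of these passed. Without DOCA–HS after replicate 2 the DOCA–HS values of the 3 were 0.028, 0.41 and 0.016.

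In the AngII model 8 of the 64 tested pathway genes were higher and 2 lower at a raw p-value of 0.05 or less, by edgeR's quasi-likelihood test, against 6.65% of all genes in either direction. The 8 were Ifi47, Znfx1, Igtp, Gbp5, Trex1, Pias1, Tbk1 and Tlr7, with log2 fold changes of 1.27, 1.19, 1.00, 0.88, 1.14, 1.05, 0.87 and 1.24. Ifi47 and Igtp belong to the same GTPase family as Irgm. The 2 lower genes were the feedback inhibitors of JAK signalling Socs1 and Socs3. Socs1 was at 5.05 and 4.71 CPM before and 0.636 and 1.05 CPM after CMG (log2 fold change −2.42, SE 0.40, adjusted p = 0.547, edgeR), and Socs3 at 62.5 and 20.2 CPM before and 10.2 and 5.45 CPM after CMG (log2 fold change −2.4005, SE 0.58, adjusted p = 0.628, edgeR). Both met the criterion, and Socs3 was at −1.38 without before replicate 1, short of it.

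In the DOCA–HS model 0 of the 65 pathway genes tested had a raw p-value of 0.05 or less (edgeR), against 3.17% of all genes. Before CMG, 12 of 65 were higher and 6 lower in DOCA–HS than in AngII blood, against 14.5% of all genes. Socs1, at 5.05 and 4.71 CPM in the AngII and 1.24 and 1.18 CPM in the DOCA–HS libraries, had a log2 fold change of −2.003 (SE 0.34), and that of Socs3 was −2.70 (SE 0.51), while Isg20, Ube2l6, Mavs and Lgals9 were the other 4 lower genes, at −0.92, −0.82, −0.77 and −0.72. The higher genes included Psmb8 (1.17), Ifi47 (1.17), Igtp (0.91), Gbp5 (0.78), Trex1 (1.32) and Irf5 (0.88). The comparison before CMG shares its AngII before libraries with the after against before comparison of that model. The values of Socs1, Socs3, Ifi47, Igtp, Gbp5 and Trex1 in both comparisons are therefore not independent. After CMG 0 of 63 passed, against 0.801% of all genes. The average change gave 4 higher and 2 lower of 66, against 3.9%, and the difference between the models gave 1, Uba7, against 3.74%.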

How the data were processed

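Whole-blood libraries (2 per group, 8 in all) were grouped by the labels. Single-end reads had been aligned by the authors to rn6 with HISAT2 and assigned to genes by strand with HTSeq, and they deposited raw counts, used here without change; their methods state that hemoglobin annotations were removed, while Hbb and LOC100134871, taken here as hemoglobin genes, lead the deposited counts. The kit is named with and without "Directional" in the study's methods and the labels; overlapping genes such as Parp9 and Dtx3l are uncertain if strand was not kept.

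Genes were tested with edgeR 4.0.16 (R 4.3.3; filterByExpr, TMM, estimateDisp, glmQLFit, glmQLFTest), each comparison on its own 4 libraries, the average and the difference of changes on all 8. P-values were Benjamini-Hochberg adjusted over all genes tested. The tests were checked on simulated counts. Alternatives were DESeq2 1.42.0, other scalings and filters, 1 fit over all libraries, a replicate block and each library left out. Named in full were members at an unadjusted p of at most 0.05 and otherwise the 3 smallest p-values per comparison. Pathway genes that are no members were named past the same threshold or as interferons, receptors and Socs1, and 1 further gene of this rule is not reported here. The members, lists and tests were chosen with earlier results of these data known. The counts are from rn6 and the promoters from GRCr8, so no gene coordinates are joined.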

Additional observations from a re-analysis of the deposited data

How the results depend on the processing

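The study's criterion called 0 members in each of the 6 comparisons, and alternatives changed this in a few places. A raw p-value of 0.05 or less at any fold gave 3 members in AngII blood, 2 in DOCA–HS blood, 7 before CMG between the models and 3 in the average. The shares of all genes were 6.65%, 3.17%, 14.5% and 3.9%. Scaling to total counts called 3 members in the AngII model (median 0.49, all genes 0.36), against 222 of 7201 genes. Before CMG between the models it called 3 (median 1.00, all genes 0.84), against 559 of 7470 genes. It moved the median difference between the models to −0.99, beside −1.21 for all genes. Scaling to total counts outside 2 hemoglobin genes called 3 (median 0.50), 3 (median 0.93) and 1, Ddx58 (median −0.72), in the same comparisons. The medians of all genes there were 0.38, 0.76 and −0.89, and 238, 427 and 164 of all genes were called. With no filter on low counts, 1 member, Oas2, was called in the DOCA–HS model and 1 in the average. Of all genes, 268 of 11208 and 120 of 11692 were called there. Among fold changes before CMG with a raw p-value of 0.05 or less in either fit, total counts turned Irf7 to 0.11, Lgals9 to 0.038 and Mavs to 0.022, and the scaling without hemoglobin turned Irf7 to 0.045 and Irf1 to 0.68. DESeq2, the DESeq2 size factors, at least 10 counts in every library and 1 fit over all 8 libraries called 0 members in every comparison they covered. The cause of these changes was not tested.

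The replicate number as a block called 1 member in the AngII model, Rtp4, against 105 of all 7201 genes tested. There 8 members had a raw p-value of 0.05 or less in place of 3, against 13.6% of all genes in place of 6.65%. The block called 0 members in the DOCA–HS model, the average and the difference between the models. In the average, Bst2 and Gbp2 had a raw p-value of 0.05 or less with the block, and Irgm did not. Same-numbered libraries deviated together with r of 0.42 (AngII) and 0.31 (DOCA–HS), from 2 pairs each. The study's methods describe blood sampling of the rats at both times, but nothing says that a number marks a rat. The pairs were therefore not used in the main fits. In the comparisons between the models no block was fitted, because the models were made in separate rats.

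With each library left out, the number of members called ranged from 0 to 4 in AngII blood, 0 to 6 in DOCA–HS blood, 0 to 2 before CMG and 0 to 6 after CMG between the models, 0 to 1 in the average and 0 to 9 in the difference. The medians ranged from −0.083 to 0.44, −0.90 to 0.40, 0.12 to 0.24, −0.91 to 0.38, −0.02 to 0.31 and −1.08 to 0.19 in the same order. Each of these fits leaves 1 library alone in a group, and genes that are not members were also called in each. The numbers of members called are therefore no result about the members. The highest numbers in DOCA–HS blood, after CMG and in the difference came without DOCA–HS after replicate 1. There the median of all genes was also lower, at −0.37, −0.30 and −0.50. Among fold changes that turned sign with a raw p-value of 0.05 or less, with or without the library, the range was from −1.30 to 1.17 for Lgals9 in AngII blood, and in DOCA–HS blood from −1.37 to 0.63 for Ifit2, −0.87 to 0.58 for Irf1, −2.07 to 1.04 for Parp14, −6.96 to 0.72 for Rtp4 and −2.71 to 1.03 for Znfx1. Between the models, Ifit3 ranged from −1.01 to 1.13 before CMG, and Irgm from −2.30 to 0.74, Mx2 from −7.01 to 1.08 and Tlr7 from −2.57 to 0.64 after CMG. Mx2 in the difference ranged from −7.72 to 0.79. Rtp4 and Mx2 had 0 counts in the single after library left in those fits, so their fold changes there depend on the prior count and are no bounds. Other fold changes turned sign without such a p-value.

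With the ISRE core on the plus strand only, 39.1% of the members' promoters held it, against 1.69% of all. With 2 libraries per group and 1 DOCA–HS after library of low depth, differences of members with few counts were not detectable there.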
